A study of Punica granatum with 4 samples.

Results

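Leaf RNA of drought-stressed pomegranate (Punica granatum, strain Hongmanao, labelled wt) was compared between plants sprayed with 90 µM and plants sprayed with 30 µM abscisic acid (ABA). The comparison covered 18708 genes, of 27893 features in the deposited count table. These were the genes with a level of at least 1 CPM (the gene's count relative to its library's total, on the usual CPM scale) in the 90 µM or the 30 µM library. Both groups consisted of 180-day-old plants raised for 90 days from cuttings dipped in the rooting auxin IBA, then kept at 30% to 35% of field water capacity, with 5 mL of spray a day. The series also holds a 60 µM and a 0 µM (water) library from plants under the same drought, so that no library comes from well-watered plants. Each dose is represented by 1 library, and the labels do not say how many plants went into it. No test between doses can therefore be made, and every interval given here is an exact 95% interval for counting error alone.

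ABA is the hormone that plants make when tissue dries. It binds soluble receptors of the PYR/PYL family, the occupied receptors block PP2C phosphatases, and the SnRK2 kinases that these phosphatases hold in check are freed to act on ion channels and on bZIP transcription factors. In leaves it is best known for closing stomata, and for switching on genes of water-stress protection while growth and photosynthesis genes are held down. The genes of the count table carry LOC identifiers, which neither the table nor the reference used here pairs with a product, so that the members of this pathway, and the markers of leaf or of other tissues, could not be picked out. The results are therefore ordered by expression level, by class of RNA and by the size of the difference.

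The 90 µM library held 26590290 counts and the 30 µM library 24052618, against 28366719 at 60 µM and 22118468 at 0 µM. At these depths 1 CPM corresponded to 26.6 counts at 90 µM and to 24.1 counts at 30 µM. Among the genes nearest the 1 CPM limit, LOC116210610 lay inside it, with 27 counts at 90 µM and 17 at 30 µM. LOC116197928 lay outside it, with 23 counts at 90 µM and 24 at 30 µM. A further 578 features reached 1 CPM in the 60 µM or the 0 µM library only and were not among the genes compared. Libraries were scaled with TMM factors (0.964 at 90 µM and 1.04 at 30 µM), which align the bulk of the genes. Scaling by total counts in place of TMM lowers log2 ratios by 0.11. Both are given for the main counts by direction and level, while ratios of single genes are TMM-scaled unless stated. For the most abundant genes this shift reaches outside the counting interval. The ratios describe RNA in whole leaves, where fewer cells of a type cannot be told apart from less RNA per cell.

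Across all genes the median absolute log2 ratio of 90 to 30 µM was 0.32. A gene was called higher or lower at 90 µM when the whole counting interval of its ratio lay past 2-fold. By this rule of size 610 genes were higher (3.26% of those compared) and 592 were lower (3.16%), 6.43% in all. Scaled by total counts the split was 471 higher and 755 lower, and the balance of directions thus turns on the scaling. For another 1087 genes the ratio itself was 2-fold or more while the interval reached inside 2-fold, which leaves their size undecided at this depth. At the other end, the interval lay wholly within 2-fold for 14618 genes (78.1%) and wholly between a ratio of 0.8 and its inverse for 4940 (26.4%). Counted another way, 10351 genes (55.3%) had a ratio below 2-fold whose interval did not include equality.

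**Figure D1:**
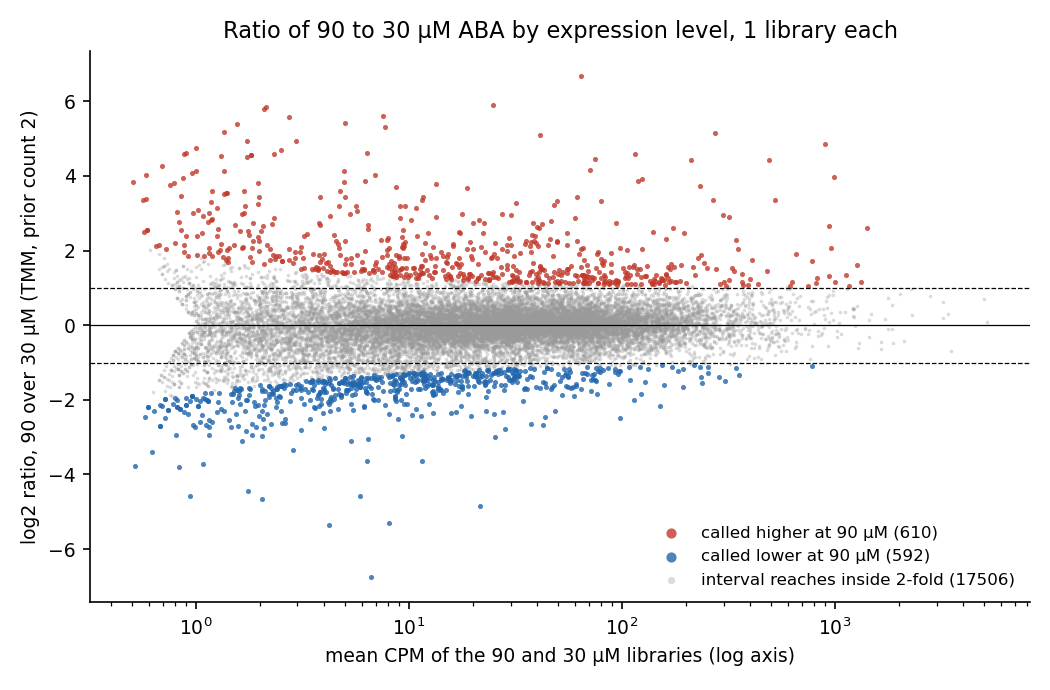
Log2 ratio of the 90 to the 30 µM library (y axis, TMM-scaled with a prior count of 2) against the mean CPM of both libraries (x axis, log scale), 1 point per gene. The 610 genes called higher and the 592 called lower thin out differently to the right: above 100 CPM 108 are higher and 25 lower, or 85 and 42 when scaled by total counts.

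The size of the difference depended on expression level, and not in 1 direction. CPM was not divided by transcript length, so a level here means read abundance and not molecules. In the 320 genes with a mean under 1 CPM the median absolute log2 ratio was 1.08, but there equal levels were barely possible, since 1 library had to reach 1 CPM while the mean stayed below it. Among the 1855 genes with 1 to 3 CPM it was 0.57, and among the 3490 genes with 3 to 10 CPM it was 0.40. It was 0.29 for the 5102 genes with 10 to 30 CPM and smallest, 0.23, for the 5603 genes with 30 to 100 CPM. Above that it was larger again: 0.28 for the 1904 genes with 100 to 300 CPM, 0.36 for the 390 genes with 300 to 1000 CPM and 0.43 for the 44 genes above 1000 CPM.

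Counting error fell steadily over the same levels and did not follow this turn. The median standard error of a log2 ratio from counting alone was 0.31 at 1 to 3 CPM, 0.057 at 30 to 100 CPM and 0.011 above 1000 CPM. The spread of the ratios between genes (the interquartile range divided by that of a normal distribution with SD 1) was 2.64 times the counting error at 1 to 3 CPM, 6.10 times at 30 to 100 CPM and 50.4 times above 1000 CPM. With counting error taken off, the spread was 0.77 at 1 to 3 CPM, 0.34 at 30 to 100 CPM and 0.56 above 1000 CPM, in log2 units. Sorting the genes by their level in the 60 and 0 µM libraries, which play no part in the ratio, gave 0.58 at 1 to 3 CPM, 0.24 at 30 to 100 CPM and 0.48 above 1000 CPM for the median absolute log2 ratio. The libraries at 60 and 0 µM, set against each other in the same way, had 0.56, 0.20 and 0.55 at these levels. The turn towards larger differences among the most abundant transcripts was thus seen in both pairs of libraries, and whether its size differs between the pairs was not tested.

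What the depth could show also changed with level. For a gene with the median count of its level, the smallest ratio that the rule could call was 4.38 under 1 CPM, 3.34 at 1 to 3 CPM, 2.32 at 10 to 30 CPM and 2.03 above 1000 CPM. The counts of called genes are for this reason not comparable between the lowest and the higher levels. Ratios of 2 or more with an interval reaching inside 2-fold made up 39.4% of the genes under 1 CPM, 18.3% of those at 1 to 3 CPM and 1.46% of those at 30 to 100 CPM. Intervals wholly between a ratio of 0.8 and its inverse were found for 0 genes at 1 to 3 CPM, where the depth does not allow them, against 45.5% at 30 to 100 CPM and 34.1% above 1000 CPM.

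The direction of the called genes turned over with level. Below 30 CPM, 352 genes were higher and 477 lower at 90 µM. Of these, 29 higher and 36 lower genes had a mean under 1 CPM and so reached 1 CPM in 1 library only. With 1 CPM required in both libraries, 484 genes of all levels were higher and 470 lower. At 30 to 100 CPM 150 were higher and 90 lower, at 100 to 300 CPM 73 and 21, at 300 to 1000 CPM 30 and 4, and above 1000 CPM 5 and 0. As shares of the level, the higher genes made up 2.20% at 10 to 30 CPM and 7.69% at 300 to 1000 CPM, while the lower genes made up 3.12% and 1.03%. Scaled by total counts there were 283 higher and 598 lower below 30 CPM and 85 higher and 42 lower above 100 CPM, the same turn with fewer higher genes; at 30 to 100 CPM, where 103 were higher and 115 lower, the order flipped. With genes sorted by their level at 60 and 0 µM, 366 were higher and 468 lower below 30 CPM, and 98 higher and 32 lower above 100 CPM. Between 60 and 0 µM, 429 genes were higher and 361 lower at 60 µM below 30 CPM, and 115 and 94 above 100 CPM.

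**Figure D2:**
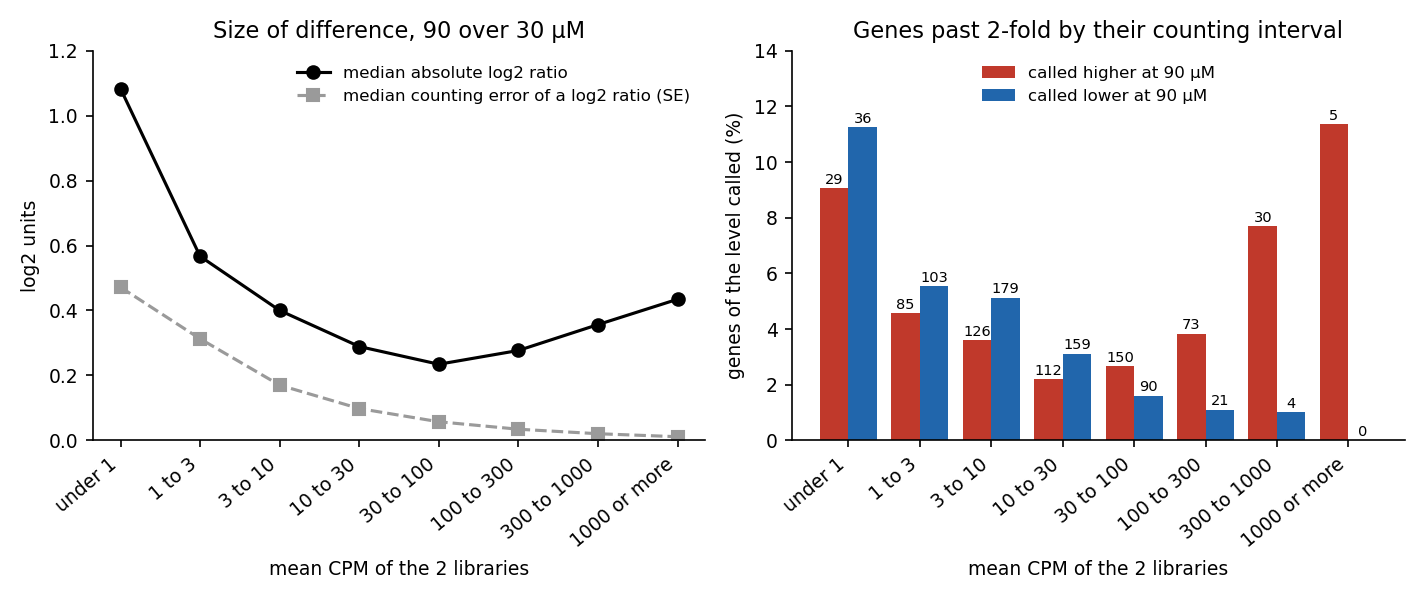
Left, median absolute log2 ratio of 90 to 30 µM (circles) and the median counting error of such a ratio (squares) in 8 levels of mean CPM. Right, share of the genes of each level (y axis, percent) called higher (red) or lower (blue) at 90 µM, with their number above each bar; red exceeds blue from 30 CPM upward (from 100 CPM upward when scaled by total counts), and the absolute ratio is smallest at 30 to 100 CPM.

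The medians of the signed ratios went the same way as the calls. The median log2 ratio was -0.14 at 1 to 3 CPM, -0.02 at 10 to 30 CPM, 0.04 at 30 to 100 CPM, 0.07 at 100 to 300 CPM, 0.14 at 300 to 1000 CPM and 0.28 above 1000 CPM. Scaled by total counts these became -0.23, -0.13, -0.07, -0.04, 0.03 and 0.18, so the order of the levels was kept while the sign flipped at 30 to 100 and at 100 to 300 CPM. Of the 44 genes above 1000 CPM, 30 had a ratio above equality and 14 below it, or 28 and 16 when scaled by total counts.

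In shares of each library, genes above 300 CPM took more of the reads at 90 µM. The 44 genes above 1000 CPM held 8.46% of the 90 µM library and 7.46% of the 30 µM library, and the 390 genes with 300 to 1000 CPM held 19.4% and 17.7%. The 5603 genes with 30 to 100 CPM held 30.4% at 90 µM and 31.7% at 30 µM, and the 5102 genes with 10 to 30 CPM held 9.10% and 9.92%. In all, genes with a larger share at 90 µM gained 13.8% of the library, and since shares sum to a constant, genes with a smaller share lost about as much. The gain was the more concentrated: 100 genes made up 35.3% of it, against 19.2% of the loss for the 100 genes that lost most. The 610 called higher genes made up 7.004% of the 90 µM library and 2.37% of the 30 µM library, and the 592 called lower genes took 0.734% and 2.15%, values that the rule of size itself fixes in direction.

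The 5 most abundant genes all lay within 2-fold. LOC116215619 had 5132 CPM at 90 µM and 5207 CPM at 30 µM, a TMM-scaled ratio of 1.06 (interval 1.05 to 1.07) whose direction flips when scaled by total counts. LOC116204098 had 5987 and 3978 CPM, 1.62-fold higher at 90 µM (1.61 to 1.63), the gene with the largest gain in share of the library. LOC116208007 had 2572 CPM at 90 µM and 4443 at 30 µM, 1.60-fold lower (1.59 to 1.62), and lost the most. LOC116198126 was 1.23-fold higher (1.22 to 1.24) and LOC116204462 1.15-fold higher (1.14 to 1.16). With at least 68381 counts each in both libraries, counting leaves these ratios almost without error. The choice of scaling matters more, since total counts put all 5 ratios outside their intervals. For LOC116198126 the log2 ratio was 0.30 with TMM and 0.19 with total counts, and for LOC116204462 it was 0.20 and 0.10. The spread between plants and between library preparations at 1 dose remains unknown.

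Above 1000 CPM the largest ratios were those of LOC116195363, LOC116214825 and LOC116200037. LOC116195363 had 5693, 10202, 67760 and 64049 counts at 0, 30, 60 and 90 µM, 6.11-fold higher at 90 than at 30 µM (interval 5.99 to 6.24). LOC116214825 had 17928, 15829, 59443 and 49934 counts, a ratio of 3.07 (3.02 to 3.13). In both genes the 60 and 90 µM libraries were high and the 0 and 30 µM libraries low. LOC116200037 had 45625, 16155, 41907 and 42013 counts, a ratio of 2.53 (2.49 to 2.58), and there the 30 µM library was low against the other 3.

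At 300 to 1000 CPM the largest ratios were larger still. LOC116187230 had 2438, 1550, 44984 and 45892 counts at 0, 30, 60 and 90 µM, a 28.8-fold difference between 90 and 30 µM (27.4 to 30.4). LOC116200065 had 9257, 1110, 23618 and 24739 counts and a ratio of 21.7 (20.4 to 23.1). LOC116194260 had 1223, 3052, 72755 and 49386 counts and a ratio of 15.8 (15.2 to 16.4). The 3 genes were high at 60 and 90 µM alike, and LOC116194260 was lowest in the water library. On the lower side the ratios of this level were modest. LOC116202437 had 7789, 11048, 9371 and 4005 counts at the rising doses, 2.83-fold lower at 90 than at 30 µM (2.73 to 2.94). LOC116195398 was 2.52-fold lower (2.44 to 2.61) and LOC116202743 2.21-fold lower (2.14 to 2.29).

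At 100 to 300 CPM the largest upward ratios again exceeded the largest downward ones. This holds for the extremes and not for the typical called gene. The median log2 ratio of called genes was 1.36 for the 73 higher and -1.29 for the 21 lower genes. At 300 to 1000 CPM it was 1.41 for the 30 higher and -1.24 for the 4 lower genes. LOC116211880 had 2480, 383, 4450 and 14159 counts at 0, 30, 60 and 90 µM, a ratio of 36.0 (32.5 to 39.95) between 90 and 30 µM. LOC116187191 had 63, 235, 6912 and 5837 counts and a ratio of 24.2 (21.2 to 27.7). LOC116187190 had 270, 482, 4241 and 10646 counts and a ratio of 21.5 (19.6 to 23.6). Each of these was higher at 60 than at 0 µM as well, by the counts given. The largest lower ratios at this level were 4.48-fold for LOC116203164 (4.22 to 4.75), 4.04-fold for LOC116213173 (3.78 to 4.32) and 3.57-fold for LOC116206415 (3.36 to 3.80). LOC116203164 had 2094, 5990, 6098 and 1374 counts at the rising doses, so the 90 µM library was the lowest and the 60 µM library was near the 30 µM library.

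At 30 to 100 CPM LOC116206805 had the largest ratio of its level, with 256, 30, 265 and 3374 counts at 0, 30, 60 and 90 µM. It was 109.5-fold higher at 90 than at 30 µM (76.6 to 163), and the 60 and 0 µM libraries lay between, nearly level with each other. LOC116192444 had 32, 59, 1569 and 2131 counts and a ratio of 35.2 (27.2 to 46.4), and LOC116204689 had 424, 166, 2278 and 3807 counts and a ratio of 22.3 (19.1 to 26.2). The lower genes of this level were LOC116202871 at 6.43-fold (5.67 to 7.31), LOC116197689 at 6.35-fold (5.56 to 7.28) and LOC116194975 at 5.60-fold (5.18 to 6.06). LOC116194975 had 4031, 4030, 1815 and 739 counts, nearly equal in the 0 and 30 µM libraries and lower at each further dose.

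Among called genes, very large ratios were more numerous upward than downward. Of the 610 higher genes, 234 were past 4-fold, 101 past 8-fold and 32 past 32-fold by their ratio, against 162, 33 and 8 of the 592 lower genes. With the whole interval required to lie past 4-fold there were 148 higher and 48 lower genes. That count also depends on depth: 477 of the lower genes lay below 30 CPM, where intervals are wider, against 352 of the higher genes. These sizes were not worked out with total counts. The median log2 ratio of called genes, in which the rule fixes the sign, was 1.68 for the higher and -1.62 for the lower ones.

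Genes of fewer counts supplied most of the remaining extremes. LOC116194361 had 1, 19, 289 and 1294 counts at 0, 30, 60 and 90 µM, a ratio of 66.3 (42.3 to 111), and increased at each dose. LOC116195203 had 114 counts at 90 µM and 0 in the other 3 libraries, at least 37-fold higher than at 30 µM when a floor of 3 counts stands for that library. The exact interval of this ratio, which also covers the counting error at 90 µM, begins at 29.6. LOC116197190 had 111 counts at 90 µM and 0 at 30 µM, at least 36-fold higher against the same floor with an exact interval that begins at 28.8, and had 2 counts at 60 µM and 0 at 0 µM. LOC116194947 had 145 counts at 90 µM and 1 at 30 µM, a ratio of 141 whose interval runs from 24.9 to 5616. These 3 genes were thus seen almost only at the highest dose, in 1 library. LOC116210895 had 20, 6, 11 and 396 counts (ratio 64.3, interval 29.3 to 176), LOC116215247 had 14, 4, 97 and 261 (63.5, 24.5 to 235) and LOC116213532 had 44, 8, 222 and 402 (48.9, 24.6 to 114).

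Of the 10 largest downward ratios, 5 came from genes that stood out at 30 µM alone. LOC116210786 had 5, 317, 17 and 1 counts at 0, 30, 60 and 90 µM, 326-fold lower at 90 than at 30 µM with an interval from 58.0 to 12897. LOC116215861 had 14, 381, 5 and 8 counts (48.9-fold lower, 24.6 to 114), LOC116210730 had 19, 1005, 31 and 34 (30.4-fold, 21.6 to 44.1), and LOC116208212 had 31, 520, 26 and 41 (13.0-fold, 9.47 to 18.4). LOC116195140 had 11, 127, 13 and 11 counts, 11.9-fold lower (6.41 to 24.4). In these 5 genes the 90, 60 and 0 µM libraries were all low and the 30 µM library alone was high. Another 2 were high at both 30 and 60 µM, LOC116190013 with 30, 276, 317 and 10 counts (28.3-fold lower, 15.2 to 59.8) and LOC116189807 with 9, 287, 203 and 22 (13.4-fold, 8.68 to 21.7). LOC116189727 had 204, 200, 74 and 3 counts (68.5-fold lower, 23.1 to 335) and LOC116205152 had 240, 280, 45 and 33 (8.71-fold, 6.06 to 12.9), both lower at 60 and 90 µM than in the other libraries. LOC116187213, with 110, 234, 410 and 26 counts (9.24-fold lower, 6.15 to 14.4), peaked at 60 µM.

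**Figure D3:**
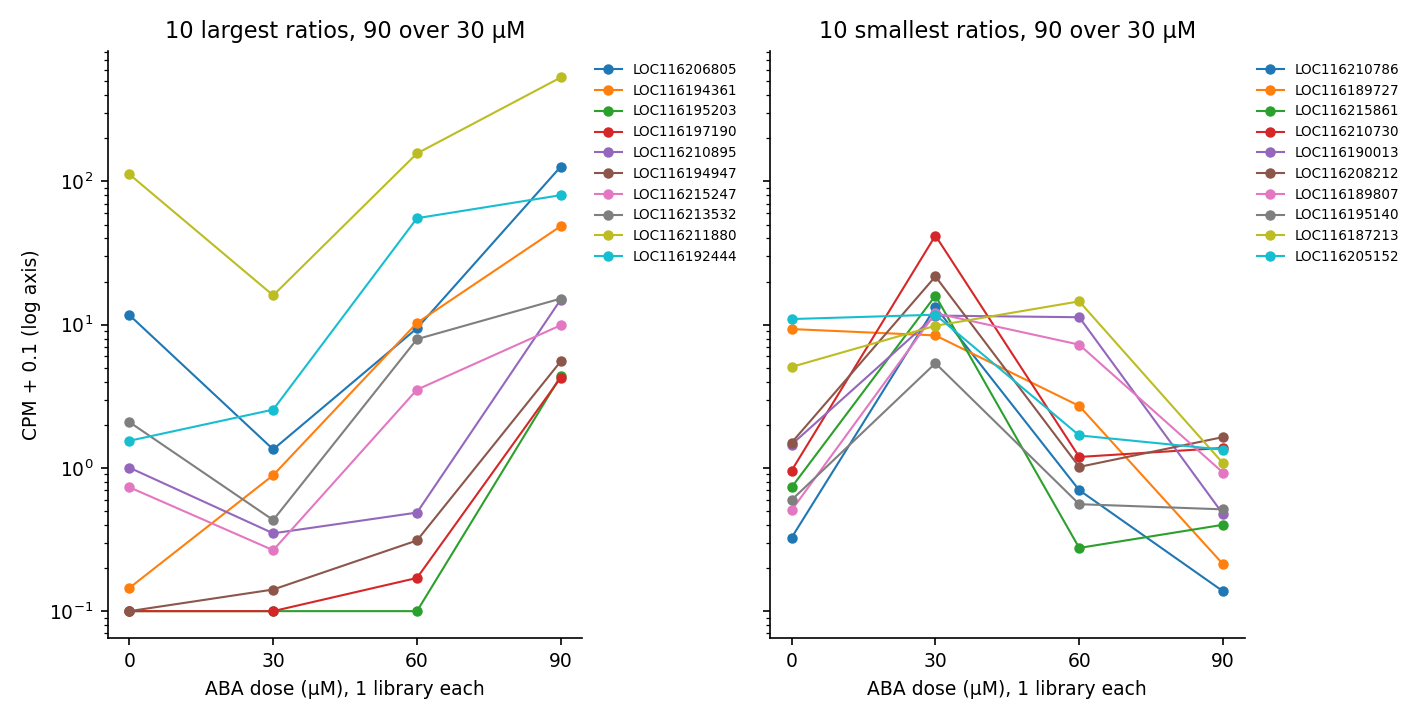
CPM plus 0.1 (y axis, log scale) at 0, 30, 60 and 90 µM ABA (x axis, 1 library each) for the 10 genes with the largest and the 10 with the smallest log2 ratio of 90 to 30 µM among called genes with a larger count of at least 100. The upper set peaks at 90 µM, and 5 of the lower set peak at 30 µM alone.

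Genes with 100 counts or more in 1 library and 10 or fewer in the other were rare. They numbered 9 on at 90 µM (0.0481% of the genes compared) and 4 on at 30 µM (0.0214%). Besides those named above they were LOC116199769, LOC116201840 and LOC116213164 on at 90 µM. LOC116213164 had 1, 3, 196 and 130 counts at the rising doses, and so was also on at 60 µM. LOC116201840 had 7, 3, 5 and 120 counts and was on at 90 µM alone. LOC116199769, with 4, 3, 50 and 154 counts, had an intermediate value at 60 µM.

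The libraries at 60 and 0 µM took no part in choosing the called genes, although the levels at 90 and 30 µM set the scale on which they are placed here. For each gene the midpoint between its 90 and 30 µM levels was taken on a log scale, with TMM factors over all 4 libraries. Above or below equality is judged here by these levels, so the numbers of uncalled genes differ slightly from those by the ratios used elsewhere. Of the 610 genes higher at 90 µM, 402 (65.9%) had their 60 µM level on the 90 µM side of it and 150 (24.6%) had their 0 µM level there. Among the 8727 genes that were above equality but not called, these shares were 48.5% and 46.1%. Of the 592 genes lower at 90 µM, 285 (48.1%) had their 60 µM level and 134 (22.6%) their 0 µM level on the 90 µM side, against 47.0% and 41.9% of the 8779 uncalled genes below equality. Most called genes of both kinds were therefore nearer their 30 µM level in water-sprayed plants. At 60 µM most higher genes lay on the 90 µM side, while the lower genes were split almost evenly. Uncalled genes mostly differ little between 90 and 30 µM, so their shares are only a rough yardstick for the called ones.

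Counted in reads, the higher genes took 2.91%, 2.37%, 5.83% and 7.004% of the library at 0, 30, 60 and 90 µM, and the lower genes 1.69%, 2.15%, 1.33% and 0.734%. The exact binomial interval of the widest, at 90 µM, was 6.99% to 7.01%. At 60 µM, a library that did not choose the genes, the shares of both the higher and the lower genes were closer in percentage points to those at 90 µM than to those at 30 µM. The median CPM of the higher genes was 11.6, 8.61, 21.3 and 27.9 at the rising doses, and that of the lower genes 10.5, 13.8, 8.14 and 3.87.

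**Figure D4:**
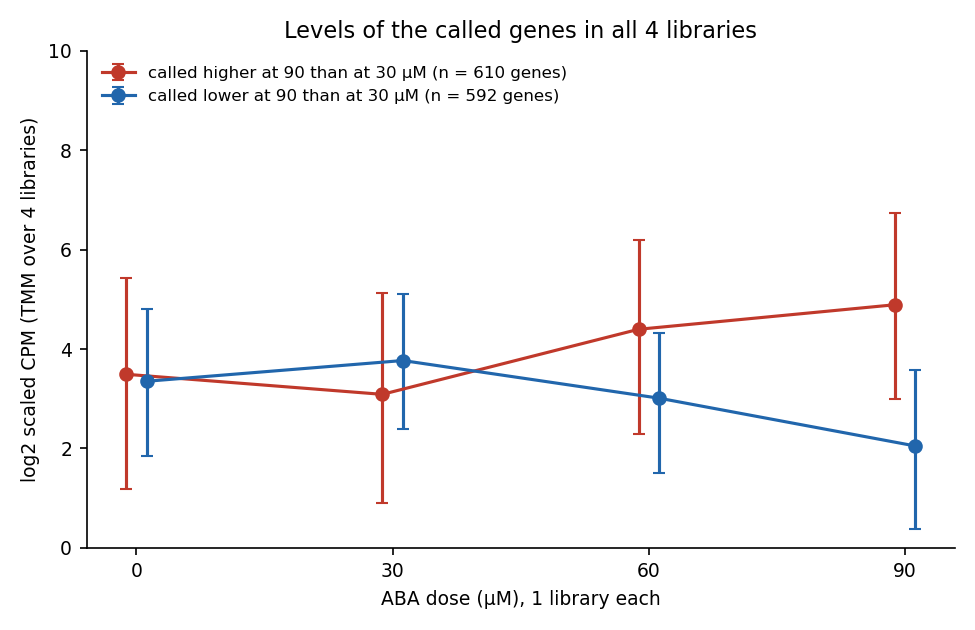
Median log2 scaled CPM (points, y axis) with the range of the middle 50% of genes (bars) at 0, 30, 60 and 90 µM (x axis, 1 library each) for the 610 genes called higher (red) and the 592 called lower (blue) at 90 than at 30 µM. The values at 30 and 90 µM chose the genes; at 60 µM the red median is above its value at 0 µM and the blue median below it.

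A comparison with no library in common with this one is 60 against 0 µM, in which 688 genes were higher (3.62% of 19011) and 551 lower (2.9%), 6.52% in all. Higher in both comparisons were 201 genes, 33.0% of those higher at 90 than at 30 µM and 29.2% of those higher at 60 than at 0 µM, while 10 were higher in the first and lower in the second. Lower in both were 60 genes, 10.1% and 10.9% of the lists, with 28 lower in the first and higher in the second. With intervals past 4-fold, 38 higher genes were shared (25.7% and 20.1%) and 3 lower ones (6.25% and 3.09%). LOC116187230, LOC116187191, LOC116194260 and LOC116192444 above are among those with high counts at both 60 and 90 µM and low counts at both 0 and 30 µM.

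By class of RNA, the reference table gave a class for all 18708 genes. Protein-coding genes numbered 18097, with 596 higher (3.29%), 571 lower (3.16%) and a median log2 ratio of -0.00160. Of 589 long non-coding (lncRNA) genes 14 were higher (2.38%) and 21 lower (3.57%), with a median of -0.07, at a median level of 2.91 CPM against 24.0 CPM for protein-coding genes. LOC116190406, the lncRNA with the most extreme lower ratio (named after its values were seen), had 139, 1090, 89 and 139 counts at the rising doses, 8.05-fold lower at 90 than at 30 µM (6.74 to 9.68) and, like several protein-coding genes above, high at 30 µM alone. The most abundant lncRNA, LOC116206178, had 378 CPM at 90 µM and 247 CPM at 30 µM, a ratio of 1.65 (1.60 to 1.70). LOC116198805 and LOC116208474, next in abundance, had ratios of 1.09 (1.06 to 1.13) and 1.43 (1.37 to 1.49). Scaled by total counts the log2 ratios of LOC116206178, LOC116198805 and LOC116208474 were 0.62, 0.02 and 0.41, against 0.72, 0.13 and 0.51.

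Ribosomal RNA features, the structural RNAs of the ribosome, were mostly lower at 90 µM by their ratio, and none passed the rule of size. Of 11 features 8 were below equality and 3 above, with log2 ratios from -0.87 to 0.82 and a median of -0.51. Over all genes compared 50.4% were below equality and 6.43% were called, so that 0 calls among 11 features is no result about them. LOC116190074 had 493 CPM at 90 µM and 805 CPM at 30 µM, 1.52-fold lower (1.48 to 1.55), LOC116190117 was 1.42-fold lower (1.38 to 1.45) and LOC116190114 1.46-fold lower. Together the features took 0.146% of the library at 90 µM (0.144% to 0.147%) and 0.228% at 30 µM (0.226% to 0.230%). Such features are repeated copies whose reads can be shared, so single values are uncertain. The sources used here do not state how the libraries treated RNA without a poly(A) tail, and its part in these values was not tested.

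Small nucleolar RNAs (snoRNAs), which guide the chemical modification of rRNA, were mostly lower by their ratio as well. Of 8 genes, from 262 such features in the count table, 7 were below equality, with a median log2 ratio of -0.78. None passed the rule of size, against the same 50.4% and 6.43% over all genes. Their median level was 2.87 CPM, and at 1 to 3 CPM 1058 of 1855 genes were below equality. A gene with the median count of that level needed a ratio of 3.34 to be called, so 0 calls among 8 genes is no result about them. LOC116198344 had 348, 322, 254 and 157 counts at 0, 30, 60 and 90 µM, 2.11-fold lower at 90 than at 30 µM, but with an interval of 1.73 to 2.57. LOC116206512 was 2.07-fold lower (1.70 to 2.54) and LOC116206507 1.89-fold lower (1.48 to 2.43). The class took 0.00229% of the library at 90 µM (0.00211% to 0.00248%) and 0.00451% at 30 µM (0.00425% to 0.00479%). Of the 3 spliceosomal-type small nuclear RNA (snRNA) genes, LOC116190300 had 62 counts at 90 µM and 39 at 30 µM (ratio 1.55, interval 1.02 to 2.37). LOC116193360 had 83 and 78 counts (ratio 1.04, 0.752 to 1.43) and LOC116189699 had 25 and 36 (0.676, 0.389 to 1.16). The intervals of LOC116193360 and LOC116189699 include equality, so their direction is undecided.

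Some called genes were neighbours on the chromosome. Of 25823 genes with a place on a chromosome 1179 were called, and 117 of these (9.92%) lay in 54 unbroken runs in the same direction. Among adjacent genes, 63 pairs were called the same way against 17 called opposite ways. How many such pairs would arise without any grouping was not worked out. In 3 of the 63 pairs the gene bodies overlap, so that reads could belong to either gene. The longest runs had 5 genes, and there were 2 of them, both lower at 90 µM. The first was made of LOC116188461, LOC116186992, LOC116188662 (an lncRNA), LOC116187027 and LOC116187328, which were 2.42-fold to 6.92-fold lower. LOC116187328 had 970, 1199, 601 and 178 counts at the rising doses (6.92-fold lower, 5.90 to 8.14) and LOC116186992 had 971, 2693, 646 and 820 (3.37-fold, 3.12 to 3.65), so that the shape over doses was not shared along the run.

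The second run held LOC116207042, LOC116208622, LOC116207274, LOC116207243 and LOC116207215, from 2.90-fold lower for LOC116207274 to 5.06-fold lower for LOC116207243. LOC116207243 had 507, 675, 491 and 137 counts at 0, 30, 60 and 90 µM, and LOC116207215 had 1228, 2190, 1468 and 718. When only the compared genes count as neighbours, this run is 10 genes long, and it then also takes in LOC116207196, LOC116207249, LOC116207069, LOC116207070 and LOC116208817, which were 2.34-fold to 4.72-fold lower. The third run held 4 genes higher at 90 µM, LOC116205703 (an lncRNA), LOC116202823, LOC116202899 and LOC116202844. LOC116202844 had 9, 30, 36 and 428 counts (13.9-fold higher, 9.59 to 20.8) and LOC116202823 had 8, 17, 20 and 234 (13.4-fold, 8.19 to 23.4). In LOC116202899 there were 90 counts at 90 µM and 2 at 30 µM, a ratio of 43.8 (11.8 to 367). All 4 had their highest count at 90 µM, and the protein-coding genes of the run had low counts in the other 3 libraries. LOC116205703 had few counts throughout, 9, 8, 17 and 38 at the rising doses (ratio 4.63, interval 2.13 to 11.5), with an intermediate value at 60 µM.

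Some of the abundant genes with large ratios were also close together, a feature picked out after the values were seen. LOC116187230, LOC116187190 and LOC116187191 lie on 1 stretch with a single gene, LOC116187337, between the first and the second. LOC116187337 had 188 counts at 90 µM and 166 at 30 µM, a ratio of 1.10 (0.890 to 1.37), while its 3 neighbours were 21.5-fold to 28.8-fold higher. The gene before LOC116187230, LOC116188827, had 60 counts at 90 µM and 3 at 30 µM (ratio 19.5, interval 6.35 to 97.1). On the other side, LOC116187130, the next gene but one after LOC116187191, was called lower, with 351 counts at 90 µM and 809 at 30 µM (ratio 0.423, interval 0.372 to 0.480). LOC116200037 and LOC116200065 are adjacent. LOC116195363 is separated by the single gene LOC116193857 from LOC116195364, which had 2711, 6578, 20713 and 42395 counts at the rising doses and was 6.28-fold higher at 90 than at 30 µM (6.12 to 6.44), while LOC116193857 had 128 and 138 counts at 90 and 30 µM. Whether such neighbours are copies that share reads was not tested, since no sequence was used here.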

How the data were processed

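Leaf RNA-seq libraries of 4 ABA doses were used, 1 library per dose. The authors deposited raw counts per gene without normalization. The submitters' processing notes name FastQC, HISAT2 and featureCounts. No version, genome build, strandedness or treatment of multi-mapping reads is given in the sources. Of the 27893 features, 27509 were matched by symbol and 37 by locus tag to RefSeq's annotation of ASM765513v2, used for classes and neighbours only, and 0 columns belonged to other samples.

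Members had at least 1 CPM at 90 or 30 µM. TMM factors came from edgeR 4.0.16 under R 4.3.3, over these 2 libraries for ratios and over all 4 for the midpoints. Ratios carry exact 95% conditional binomial (Clopper-Pearson) intervals, computed with scipy 1.17.1; log2 ratios used a prior count of 2. The counting error of a log2 ratio adds 0.5 to each count. A call needs the whole interval past 2-fold. Intervals and the floor of 3 counts cover counting error only. Even this error may be larger than the intervals show, since PCR copies are not independent molecules. With counts alone and no spread within a dose, edgeR's quasi-likelihood test was not run on the pair.

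Named genes were the 10 largest and 10 smallest log2 ratios among called genes with a larger count of at least 100, the 3 largest each way per level from 30 CPM up, the 5 most abundant, the 3 most abundant per non-coding class and the 3 longest runs of neighbours. Members, lists and rules were chosen with earlier results of these data known. Lists by product description, tissue markers, promoter motifs and near-identical proteins could not be filled, with 0 members found, because the reference used here holds no descriptions or sequences.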

Additional observations from a re-analysis of the deposited data

How the results depend on the processing

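The numbers of genes called depended most on the rule. With the interval past 4-fold 148 genes were higher and 48 lower, with 1.5-fold 1423 and 1565, and by the ratio alone past 2-fold 1015 and 1274. The remaining settings (total counts, median-of-ratios scaling, no filter, and 1 CPM in both libraries) gave 471 to 656 higher and 470 to 755 lower genes. All 471 genes higher under total counts were among the 610, and all 592 lower genes were among the 755. Both follow by arithmetic, because total counts lower every ratio by the same factor. The median absolute log2 ratio was 0.98 under 1 CPM and 0.42 at 3 to 10 CPM with levels taken from the 60 and 0 µM libraries, 0.94 under 1 CPM and 0.53 at 1 to 3 CPM with a prior count of 5, and 0.43, 0.30 and 0.25 at 3 to 10, 10 to 30 and 30 to 100 CPM with total counts. Total counts also gave 42 lower genes above 100 CPM, against 25, and class medians of -0.11 for protein-coding and -0.17 for lncRNA genes. With 50 counts against 5, 29 genes were on at 90 µM and off at 30 µM. Shared with 60 over 0 µM past 4-fold were 38 higher and 3 lower genes. Taking only compared genes as neighbours gave 91 same-way pairs and 31 opposite ones among 18550 placed genes. Of the 69 genes named by rule 52 were called, and 0 of these changed sign under total counts or a prior count of 0.5 or 5. That outcome was fixed in advance and is no sign of stability. A call needs a ratio past 2-fold, total counts lower log2 ratios by only 0.11, and a prior count leaves the sign as it is. Called genes named beyond the rule were not run. No paired analysis was possible because each dose has 1 library. Motifs, near-identical copies and product lists were not run. Depth limits calls at low levels, where a gene with the median count of its level needed a ratio of 3.34 at 1 to 3 CPM and 4.38 under 1 CPM, and with 1 library per dose no setting adds a measure of the spread between plants.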

Other observations

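Outside the genes compared, 578 features reached 1 CPM at 60 or 0 µM but in neither the 90 nor the 30 µM library. Of these, 214 did so at 60 µM only, 190 at 0 µM only and 174 in both, and 61 had at least 100 counts in 1 of the 2. Their median level was 0.414 CPM at 90 µM and 0.540 CPM at 30 µM. The most abundant was LOC116213234, with 6 counts at 90 µM and 10 at 30 µM, against 5075 at 60 µM and 2527 at 0 µM. LOC116202306 had 1 count at 90 µM and 4 at 30 µM, against 692 at 60 µM and 827 at 0 µM.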
